A study of Mus musculus with 16 samples.

Results

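AFX EpiSCs are mouse epiblast stem cells kept in a medium labelled AFX, and they were compared here with naive embryonic stem (ES) cells kept in a medium labelled 2iL. The members are all the libraries of these groups, 7 of the 16 RNA-seq libraries analysed here. They are 3 libraries of the EpiSC line AFX6, taken at passages 5, 8 and 12, and 4 libraries of the ES cell line E14IV-C, taken at passages 12, 13, 15 and 20. The other libraries are 3 from an EpiSC line in a medium labelled AF and 6 from cells labelled FS in A3XR medium. The FS libraries come from the lines 5ar1 and 5ar3. As background, AF stands for activin A and FGF2, the X in AFX for the tankyrase inhibitor XAV939, which damps Wnt signalling, and 2iL for inhibitors of MEK and GSK3 given with LIF. The AFX, ES and AF groups are each 1 line in 1 medium, so line and medium cannot be told apart. The labels name no genetic change in the AFX or the ES line. The libraries of these groups are passages of 1 line each, so they hold no spread between lines. The p-values rest on a spread between libraries estimated from all 16, which also holds the difference between the FS lines.

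Naive and primed cells are successive states of pluripotency. Naive ES cells resemble the epiblast of the blastocyst before implantation, and LIF and STAT3 signalling with the transcription factors Esrrb, Tfcp2l1, Klf4 and Tbx3 sustain them while ERK is blocked. EpiSCs resemble the epiblast after implantation, depend on activin and FGF, express Otx2, Fgf5 and Dnmt3b, and stand closer to gastrulation. Wnt signals from outside or within the culture are known to push EpiSCs towards primitive streak fates.

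The deposited values are whole-number counts per gene. The AFX libraries held between 25683808 and 33290250 counts and the ES libraries between 23146499 and 24635522. The ES library of passage 12 stood apart, since mitochondrial ribosomal RNA took 40.1% of its counts against 19.43% to 20.56% in the other ES libraries and 16.61% to 27.76% in the AFX libraries. Levels are given as CPM, a gene's counts relative to the library size scaled with edgeR's TMM factors, in the order of passages 5, 8 and 12 for AFX and 12, 13, 15 and 20 for ES cells. Differences are log2 fold changes, AFX minus ES, with a standard error (SE), and a gene was called at an adjusted p under 0.05 in edgeR's quasi-likelihood test. A group with at most 3 counts in each library gives only a lower bound, and 3 counts equal a mean of 0.103 CPM in the AFX libraries and 0.152 CPM in the ES libraries.

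Genes on chromosomes X and Y were set aside, 686 tested genes on X and 16 on Y, of which 15 on Y were lower in the AFX line. Of 17853 genes tested elsewhere, 9705 (54.4%) differed between AFX EpiSCs and ES cells. A total of 5039 (28.2%) were higher in AFX EpiSCs and 4666 (26.1%) were lower, and these shares are the background for every gene list below. The change was at least 2-fold in 3826 of the higher and 2935 of the lower genes. In 9136 of the 9705 called genes the 3 AFX libraries did not overlap the 4 ES libraries, so a lack of overlap does not set a called gene apart. The share without overlap over all tested genes was not counted. Scaling by total counts alone, without TMM, moved the median of all genes from 0.01 to 0.25, and the share of calls that were higher from 51.92% to 64.72%.

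**Figure D1:**
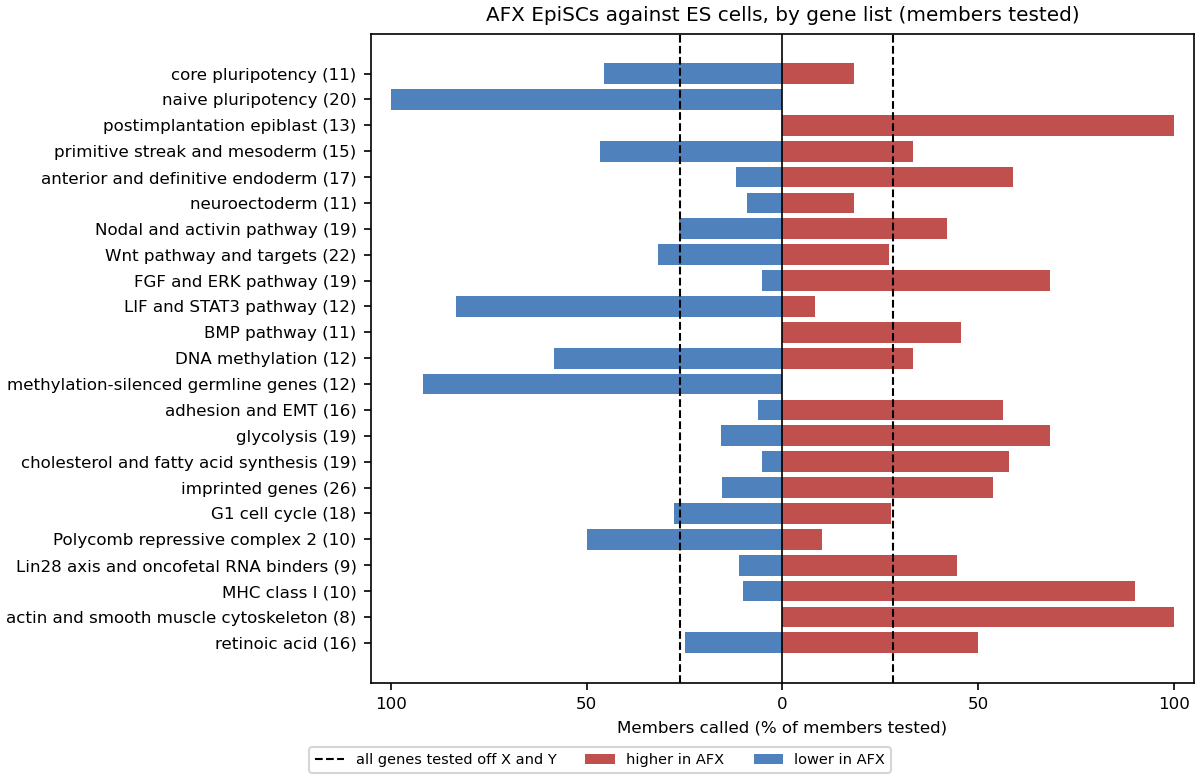
Share of the tested members of each gene list shown that were called higher (right, red) or lower (left, blue) in AFX EpiSCs than in ES cells. The number of members tested is in brackets. The lists of markers of other cells, fibroblasts among them, and the 2-cell-stage list are not shown. Dashed lines mark the shares over all genes tested off chromosomes X and Y, 28.2% higher and 26.1% lower. All 20 naive genes lie on the left and all 13 postimplantation genes on the right.

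Most of the naive programme was at or near 0 in all 3 AFX libraries. All 20 naive pluripotency genes were lower, with a median log2 fold change of -9.12 beside 0.01 over all genes, or -8.35 with the genes at the count floor put at their bound. In bulk RNA, fewer cells with an RNA and less of it per cell cannot be told apart. Esrrb, an orphan nuclear receptor of the naive network at chr12:86361117-86521628 (GRCm38), stood at 0.678, 0.78 and 1.18 CPM in AFX libraries and at 542, 707, 692 and 612 CPM in ES libraries. Its means were 0.879 ± 0.266 CPM (SD, n = 3) and 638 ± 76.5 CPM (SD, n = 4), a log2 fold change of -9.49 ± 0.55 (SE, adjusted p = 3.13e-10). Tfcp2l1, a CP2 family factor, was at 1233, 2101, 1969 and 1594 CPM in ES libraries and stood at 5.28, 5.25 and 10.3 CPM in AFX EpiSCs. Zfp42, which encodes the marker REX1, had 1 count in each AFX library against 263 to 389 CPM in ES cells, at least 3181-fold lower. Spic, an ETS family factor, had no count in any AFX library, which is at least 507-fold under its ES level.

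Other naive genes followed the same order with no overlap between groups. Klf4 was listed at 1.04, 0.881 and 0.944 CPM in AFX and 49.2, 107, 97.8 and 75.5 CPM in ES libraries, and Tbx3 at 0, 0.0678 and 0.135 CPM against 81.3, 137, 129.7 and 95.7 CPM. Tdh, the threonine dehydrogenase that feeds one-carbon metabolism in mouse ES cells, was 1364-fold lower (adjusted p = 2.62e-10). Dppa5a, an RNA-binding protein gene of early embryos, was highest at ES passage 12, with 1578, 636, 681 and 472 CPM over the ES passages, and did not exceed 0.321 CPM in AFX EpiSCs. The smallest falls in the list were those of Zfp57, Manba and Klf5. Zfp57, a zinc finger protein that protects imprints, was at 38.3, 36.2 and 41.8 CPM against 159.7, 297, 227 and 212 CPM, and its log2 fold change was -2.53 ± 0.23 (SE). Klf5, a Krüppel-like factor, was at 8.82 to 14.6 CPM against 62.1 to 90.5 CPM.

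**Figure D2:**
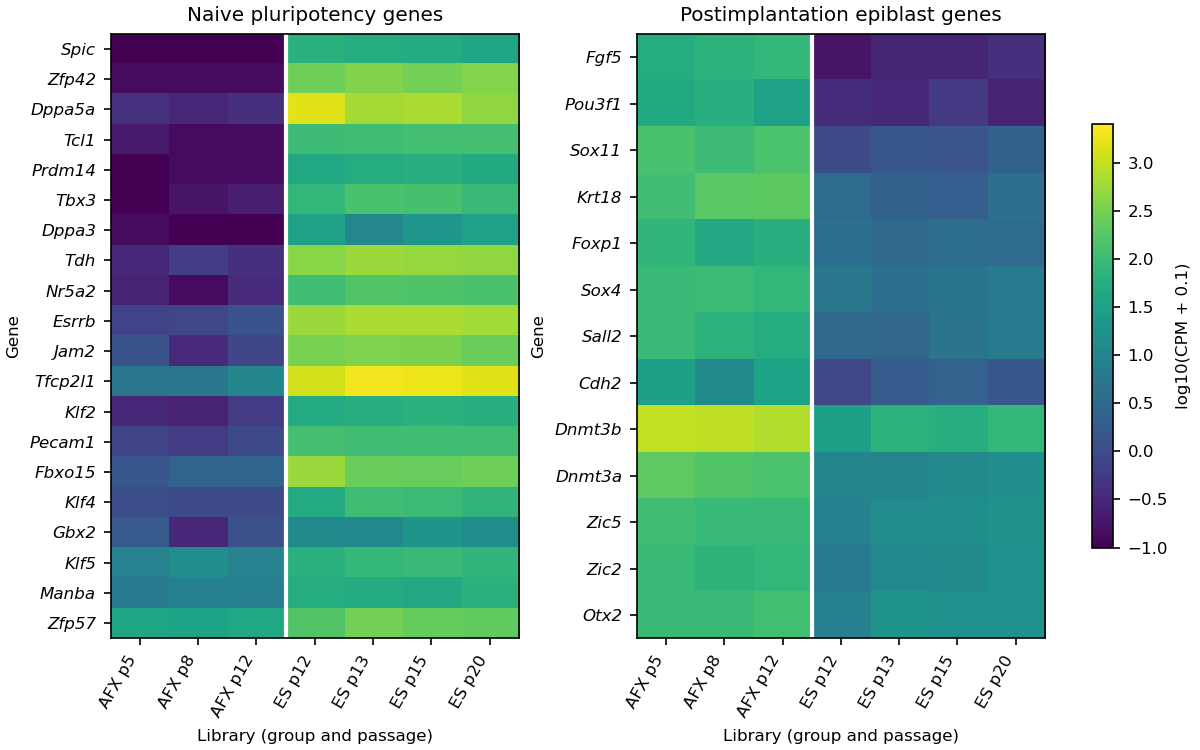
Level of each naive pluripotency gene (left) and postimplantation epiblast gene (right) in each library, as log10 of CPM plus 0.1 by colour, with genes in rows and libraries in columns. The white line separates the 3 AFX libraries from the 4 ES libraries. Every row changes colour at the line, the naive genes towards higher and the postimplantation genes towards lower levels in ES cells.

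All 13 postimplantation epiblast genes off the X chromosome were higher in AFX EpiSCs, with a median log2 fold change of 4.05, and none overlapped between groups. The largest change was that of Fgf5 (chr5:98254184-98277030), the growth factor that defines the postimplantation epiblast. It stood at 53.9, 71.04 and 82.4 CPM in AFX and 0.0691, 0.181, 0.182 and 0.298 CPM in ES libraries, a log2 fold change of 8.45 ± 0.54 (SE, adjusted p = 1.15e-09). Pou3f1, a POU factor also called OCT6, rose by 7.33 ± 0.42 (SE) and Sox11 by 6.39 ± 0.34 (SE) on the log2 scale. Otx2, a homeobox factor that drives exit from the naive state, was at 96.4, 96.6 and 117 CPM against 8.43, 18.7, 15.9 and 16.8 CPM, so it was already present in ES cells and changed least in the list, by 2.78 ± 0.26 (SE). Zic2 and Zic5, neighbours on chromosome 14, were 7.13-fold and 7.37-fold higher. Krt18, an epithelial keratin, was at 113, 185 and 195 CPM in AFX and 1.96 to 3.91 CPM in ES cells. The labels of both groups thus matched their defining markers.

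The shared pluripotency factors moved unequally. Pou5f1, which encodes OCT4, stood at 856, 805 and 676 CPM in AFX and 737, 770.2, 722 and 637 CPM in ES cells, and the groups overlapped (log2 fold change 0.12 ± 0.30 SE, adjusted p = 0.76). Sox2 was at 52.6, 42.3 and 47.8 CPM in AFX and 189, 231, 231 and 190.4 CPM in ES libraries, a log2 fold change of -2.15 ± 0.27 (SE, adjusted p = 3.69e-06). Nanog, at 155, 129 and 250.4 CPM against 955, 798, 764 and 791 CPM, changed by -2.21 ± 0.24 (SE, adjusted p = 5.03e-07). Both lay under every ES library in all 3 AFX passages. Utf1, a chromatin factor, rose by 2.76 ± 0.63 (SE), and ES passage 12 was the lowest library, at 2.35 CPM. Dppa2 and Dppa4, a neighbouring pair of chromatin factors on chromosome 16, fell to means of 0.0702 and 0.147 CPM. Of the 11 genes in the core list, 2 were higher, 5 lower and 4 not called.

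Both Lin28 genes were higher in AFX EpiSCs. Lin28b, an RNA-binding protein that blocks maturation of the let-7 microRNA, stood at 182, 149 and 137 CPM in AFX and 4.35, 4.15, 4.10 and 5.87 CPM in ES libraries, a log2 fold change of 5.07 ± 0.20 (SE, adjusted p = 7.1e-12). Its paralogue Lin28a was already at 47.5 to 157 CPM in ES cells and reached 530.5 to 608 CPM, a change of 2.60 ± 0.27 (SE). Hmga2, a let-7 target, rose by 1.78 ± 0.28 (SE), while Trim71, another target, did not pass the test (349, 375 and 331 CPM against 190.5, 407, 389.6 and 392 CPM). Of 9 genes in this list 4 were higher and 1 lower, and none was lower without AFX passage 12.

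Receptors and targets of LIF were lower in AFX EpiSCs. LIF binds the receptor pair LIFR and gp130, the latter encoded by Il6st, and activates STAT3. Of 12 genes of this pathway 10 were lower and 1 higher, with a median of -3.25. Of the 10, Klf4, Tfcp2l1 and Gbx2 are also in the naive list. Lifr was at 12.5, 7.02 and 13.8 CPM in AFX and 129, 193, 178 and 184 CPM in ES cells (log2 fold change -3.95 ± 0.29 SE), and Il6st at 42.9 to 50.3 CPM against 202 to 273 CPM. Stat3 itself fell by 5.60-fold. Its feedback target Socs3 was at 5.25, 6.98 and 6.78 CPM against 73.3, 77.8, 78.8 and 89.6 CPM, and the groups did not overlap. Junb, an immediate early gene also reached by ERK, was the member that rose (1.55 ± 0.43 SE), and Jak1 was not called (47.4 to 53.4 CPM against 32.1 to 49.6 CPM). Osm, the LIF-related cytokine oncostatin M, had no count in any AFX library and 23.6 to 31.3 CPM in ES cells, at least 269-fold lower.

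FGF and ERK pathway genes were mostly higher in AFX EpiSCs, 13 of 19 with 1 lower, and the median was 2.31. As background, 2iL holds an inhibitor of the ERK kinase MEK and AFX medium holds FGF2. Dusp6, a phosphatase induced by ERK that acts on ERK, was at 197, 169.7 and 136 CPM in AFX and 5.18, 8.13, 7.02 and 10.6 CPM in ES libraries (log2 fold change 4.43 ± 0.42 SE, adjusted p = 1.12e-07). Egr1, an immediate early transcription factor, was at 16.3, 27.2 and 17.4 CPM against 0.0691, 0.271, 0.228 and 0.298 CPM. Spry4, a feedback inhibitor of receptor tyrosine kinases, rose by 3.93 ± 0.98 (SE), with ES passage 20 the highest ES library at 6.04 CPM. Spry2, of the same family, did not pass the test, at 58.98, 36.7 and 42.8 CPM in AFX and 22.3, 34.2, 30.02 and 33.5 CPM in ES cells, but was called higher in a fit to the 7 libraries alone (adjusted p = 0.0203).

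Among the ligands and receptors the direction differed by gene. Fgf4, the ligand that naive cells make, was the member that fell, from between 199 and 285 CPM to between 16.3 and 37.6 CPM (-3.17 ± 0.70 SE). Fgf5, Fgf8 and Fgf15 rose instead. Fgf15 went from at most 0.228 CPM to between 16.5 and 29.4 CPM, and Fgf8 had at most 1 count per ES library and 3.68, 3.19 and 10.2 CPM in AFX libraries, at least 37.4-fold higher. Of the receptors, Fgfr1 was at 88.9 to 119 CPM against 30.3 to 63.6 CPM. Etv5, an ETS factor often read as an FGF target, was lower in each AFX library (175, 173 and 118 CPM) than in any ES library (231, 342, 325 and 352 CPM), with an adjusted p of 0.0803, and it was called lower in the fit to the 7 libraries alone (adjusted p = 0.00201).

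**Figure D3:**
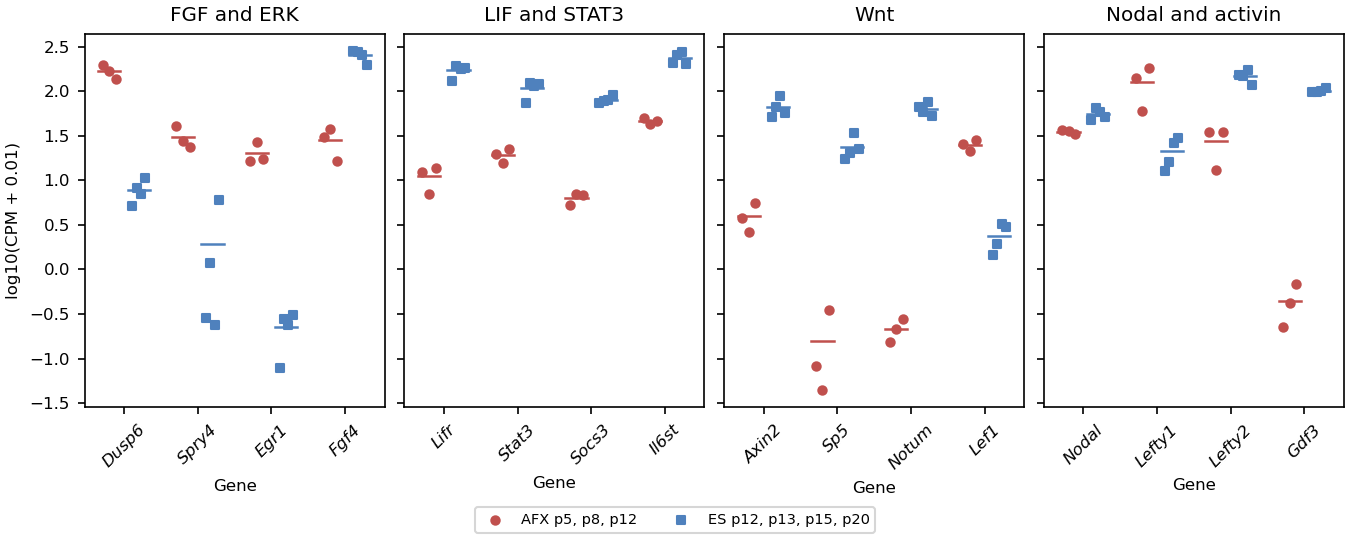
Level of 4 genes from each of 4 signalling pathways, as log10 of CPM plus 0.01, in the AFX libraries (red circles) and the ES libraries (blue squares). Each point is 1 library and each bar is the mean CPM of the group. Dusp6, Spry4, Egr1, Lef1 and Lefty1 sit higher in AFX libraries and the other genes sit lower.

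The Wnt list held genes of both directions, 6 higher and 7 lower of 22, near the background shares of 28.2% and 26.1%. With total counts as the scale 4 were lower. Direct targets and feedback genes were found among both the falls and the rises. Axin2, a scaffold of the destruction complex and a feedback target at chr11:108920349-108950783, was at 3.75, 2.61 and 5.50 CPM in AFX and 51.7, 66.4, 88.5 and 57.02 CPM in ES libraries (-4.06 ± 0.33 SE, adjusted p = 2.28e-08). Sp5, a zinc finger target of beta-catenin, was at 0.0714, 0.0339 and 0.337 CPM against 17.3, 20.5, 33.9 and 22.5 CPM. Notum, a secreted enzyme that inactivates Wnt ligands, fell by 309-fold, and Cdx1, a caudal homeobox factor, had 1 count in all AFX libraries together and was at least 189-fold lower. As background, the GSK3 inhibitor of 2iL raises beta-catenin and the tankyrase inhibitor of AFX stabilises AXIN.

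Other members went up. Wnt3, a ligand of the proximal epiblast, was at 9.93, 11.2 and 14.8 CPM in AFX and 1.17, 0.361, 1.05 and 1.02 CPM in ES cells, and the receptor gene Fzd7 at 89.6 to 95.2 CPM against 25.4 to 31.5 CPM. Nkd1, a feedback inhibitor gene, rose by 2.49 ± 0.53 (SE). Lgr5, a receptor gene and target, had at most 2 counts per ES library and 0.893, 0.203 and 7.99 CPM in AFX libraries, at least 19.97-fold higher. Lef1, the HMG-box partner of beta-catenin, rose by 3.37 ± 0.43 (SE). Its relative Tcf7l1, a repressor of naive genes, was not called, although each AFX library (16.9, 24.5 and 16.7 CPM) lay above each ES library (6.22, 13.8, 13.2 and 14.5 CPM) and the fit to the 7 libraries alone gave an adjusted p of 0.0493.

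AFX EpiSCs were also set against the EpiSC line in AF medium for these targets, since the media differ by name in the X. Between the EpiSC groups 4.22% of genes differed, 1.41% higher and 2.81% lower in AFX EpiSCs, and line and medium again cannot be told apart. Axin2 was at 14.1, 22.7 and 12.2 CPM in AF passages 13, 14 and 15, above the AFX libraries, a log2 fold change of -2.05 ± 0.32 (SE, adjusted p = 0.00107). Sp5 was at 3.21, 10.9 and 2.62 CPM in AF libraries and differed by -5.18 ± 0.73 (SE, adjusted p = 0.000383). Of the 22 genes of the Wnt list 3 were lower and none higher in AFX than in AF EpiSCs. The third was Wnt3a, whose AF libraries were at 0.771, 0.686 and 0.106 CPM. Of 15 primitive streak genes 6 were lower and none higher, and Sp5 and Wnt3a are among the 6 as well.

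Most primitive streak and mesoderm genes were at low levels in both groups. Relative to ES cells, 5 of 15 tested were higher and 7 lower. T, which encodes Brachyury, stood at 3.96, 0.644 and 12.99 CPM in AFX and 12.6, 3.57, 8.34 and 5.57 CPM in ES cells, and the groups overlapped (adjusted p = 0.74). In AF EpiSCs T was at 110.5, 136 and 33.3 CPM, and the difference from AFX was -3.99 ± 0.93 on the log2 scale (SE, adjusted p = 0.0208). Eomes, a T-box factor of the streak, was higher than in ES cells (14.9, 13.1 and 21.1 CPM against 1.66, 3.43, 2.64 and 4.72 CPM) and lower than in AF EpiSCs (35.3, 126 and 65.8 CPM, adjusted p = 0.00657). Mixl1, a streak homeobox factor, was at 0.893, 0.542 and 2.12 CPM in AFX and 0, 0.497, 0.364 and 0.298 CPM in ES cells, and its call was lost without AFX passage 12 (adjusted p = 0.188). Nkx1-2, a homeobox gene of the caudal epiblast, fell from between 26.2 and 55.9 CPM in ES cells to between 1.29 and 2.32 CPM.

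Activin and Nodal pathway genes changed in both directions, 8 higher and 5 lower of 19, and 3 were lower without AFX passage 8 or with total counts as the scale. Nodal stood at 36.5, 35.9 and 33.5 CPM in AFX libraries, under the 47.5, 65.3, 58.6 and 51.2 CPM of ES libraries, and was not called (log2 fold change -0.66 ± 0.64 SE, adjusted p = 0.408). The fit to the 7 libraries alone called it lower (adjusted p = 0.00394). The feedback inhibitors LEFTY1 and LEFTY2 went opposite ways. Lefty1 rose, with 139, 60.6 and 181 CPM in AFX and 12.7, 15.9, 26.3 and 29.5 CPM in ES libraries, and Lefty2 fell, with 34.6, 12.98 and 34.8 CPM against 153, 146, 172 and 116 CPM. AFX passage 8 was the lowest AFX library for both. Gdf3, a ligand of the same family, fell from between 97.8 and 110.1 CPM to between 0.214 and 0.675 CPM, and Pcsk6, a protease that processes Nodal, from between 81.3 and 96.1 CPM to between 3.98 and 5.00 CPM. Skil, a target of SMAD2 and SMAD3, was 5.82-fold higher, whereas Smad3 was not called (37.2, 40.97 and 46.3 CPM against 39.5, 57.1, 62.9 and 56.5 CPM). Of 11 BMP pathway genes 5 were higher and none lower, among them the receptor gene Bmpr2 (1.23 ± 0.18 SE) and the target Id2 (3.07 ± 0.43 SE).

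The AFX6 passages were not alike. By a rule of at least 10 CPM and at least 8 times the higher of the other AFX libraries, with 0.1 CPM added, passage 12 held 12 genes, and passages 5 and 8 held none. No gene was low in 1 AFX passage by the reverse rule, and no gene met either rule in an ES library. Several of the 12 are known from anterior endoderm or the organizer. Cer1 (chr4:82881751-82885148), which encodes the Nodal and BMP antagonist Cerberus, was at 2.00 CPM and 0.407 CPM at passages 5 and 8 and at 90.97 CPM at passage 12. Lhx1, a homeobox factor of the organizer, was at 0.464, 0.339 and 23.1 CPM, Sox17, an endoderm factor, at 0.0714, 0.102 and 13.1 CPM, and the Wnt antagonist gene Dkk1 at 0.393, 0.203 and 16.1 CPM. Cyp26a1, a retinoic acid hydroxylase, was at 1.29, 0.271 and 30.1 CPM, and Pga5, a pepsinogen gene, at 0.214, 0.0339 and 77.9 CPM. Without this library Lhx1, Cyp26a1, Asb4 and Pkd1l1 lost their calls against ES cells (adjusted p = 0.0517, 0.146, 0.209 and 0.246). The rest were Asb4, Cxcr4, Pkd1l1, Tph1, H19 and Greb1l.

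**Figure D4:**
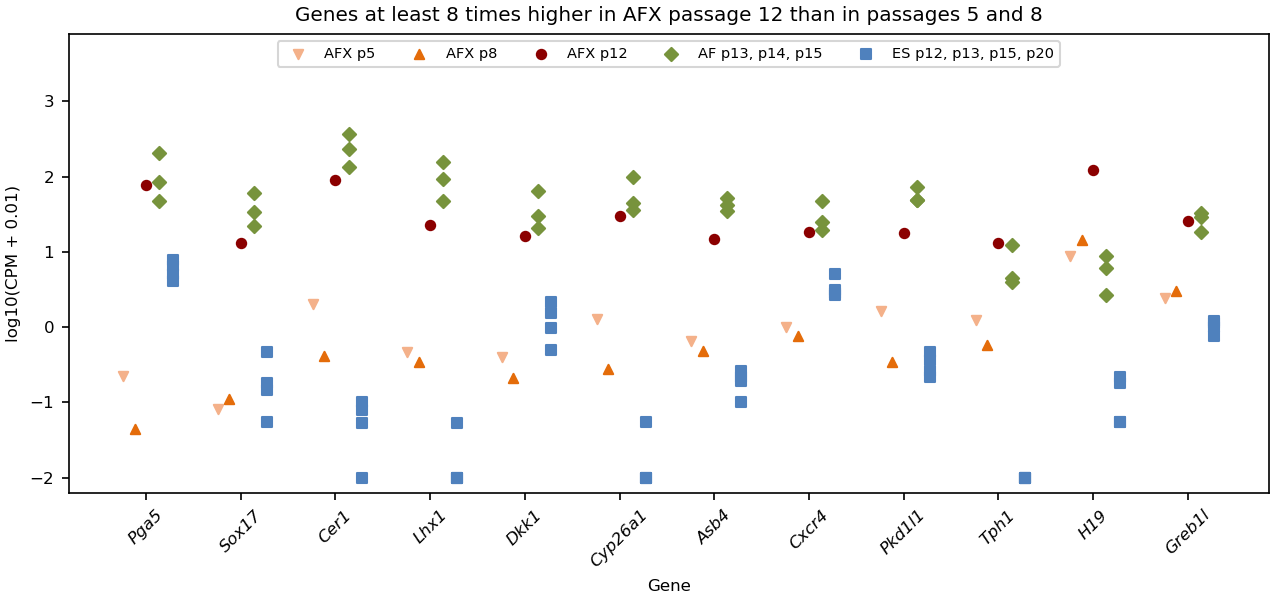
Level of the 12 genes that were high in AFX passage 12, as log10 of CPM plus 0.01, in each AFX passage, the 3 AF libraries (green diamonds) and the 4 ES libraries (blue squares). Passages 5 and 8 (orange triangles) lie far under passage 12 (dark red circles) by construction. For Cer1, Lhx1 and Sox17 every AF library lies above AFX passage 12, and for H19 and Tph1 every AF library lies under it.

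In AF EpiSCs, Cer1 was at 134, 375 and 235 CPM at passages 13, 14 and 15, Lhx1 at 48.1, 157 and 93.3 CPM and Sox17 at 22.2, 60.8 and 34.1 CPM. H19, an imprinted non-coding RNA, went the other way, at 8.78, 6.08 and 2.65 CPM in AF against 122 CPM in AFX passage 12. Tph1, a tryptophan hydroxylase gene, was at 4.44, 12.4 and 3.93 CPM in AF against 13.2 CPM in AFX passage 12. Its AF mean, 6.93 CPM, lay above its mean over the AFX passages, 5.00 CPM. T was also highest at AFX passage 12, at 12.99 CPM, under every AF library.

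The endoderm calls against ES cells rested on passage 12. Of 17 anterior and definitive endoderm genes 10 were called higher and 2 lower, and without AFX passage 12 these counts became 2 and 5. A fit to the 7 libraries alone, which shares no spread with the other groups, called 3 higher. The 5 called lower without AFX passage 12 were Cxcr4, Fzd5, Gata4, Hesx1 and Trh. The 2 still called higher without that passage were Otx2 and Cer1, and Cer1 then had an adjusted p of 0.0405. Foxa2, a forkhead factor of endoderm and node, was at 1.71, 0.474 and 12.9 CPM in AFX and 0.207, 0.0903, 0 and 0.213 CPM in ES cells, and its adjusted p went from 0.00514 to 0.0876. Sox17 went from 0.0101 to 0.406, with its estimate turning from 4.39 to -1.20. Hesx1, an anterior homeobox gene, was at 0.0357, 0.0339 and 3.14 CPM against 2.46 to 4.34 CPM, and was called lower only without passage 12 (log2 fold change -6.33). Trh, which encodes thyrotropin-releasing hormone, fell with and without that library (5.21, 0.983 and 5.94 CPM against 146, 150, 157 and 235 CPM). Fzd5, a Wnt receptor gene, had a log2 fold change of -1.20 ± 0.40 (SE), and its call was lost without AFX passage 5 or 8 (adjusted p = 0.09 and 0.0916) and with total counts as the scale (adjusted p = 0.0742).

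Markers of extraembryonic endoderm and fibroblasts were at low summed levels. The summed level of 11 extraembryonic endoderm genes was 4.71, 6.10 and 15.2 CPM at AFX passages 5, 8 and 12 and 3.25 to 5.14 CPM in ES cells. Of 5 tested, 2 were higher, Apoa1 and Dab2, and none was lower. Without AFX passage 12, 1 was higher and 1 lower. Sox7, Afp, Ttr, Apob, Amn and Fgb did not pass the filter on low counts, and Afp, Ttr and Fgb were at or near 0 in every library. Passage 12 was highest for this sum as well, and its part in the endoderm counts was not tested. Of 8 tested fibroblast genes 6 were higher, with sums of 19.14 to 30.1 CPM in AFX and 5.32 to 5.95 CPM in ES cells. The 6 were Col1a1, Col1a2, Col3a1, Postn, Thy1 and Dcn, and no fibroblast gene was called lower. The members that did not pass the filter on low counts were Fap, at 0 in all 7 libraries, and Lum, with at most 0.085 CPM. Of 11 neuroectoderm genes tested 2 were higher, Nes and Hes5, and 1 was lower, Sox21 (log2 fold change -3.43 ± 1.04 SE). Hes5 did not exceed 0.50 CPM. Nes, an intermediate filament gene, was at 449, 665 and 373 CPM against 21.05 to 28.8 CPM.

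DNA methylation genes changed in both directions. Of 12 genes 4 were higher, among them both de novo methyltransferase genes, and 7 were lower, among them the maintenance genes. Dnmt3a and Dnmt3b are also in the postimplantation list, and Zfp57 and Dppa3 in the naive list. Dnmt3b (chr2:153649450-153687730) was at 997, 937 and 772 CPM in AFX and 30.8, 68.9, 57.5 and 85.5 CPM in ES libraries (3.89 ± 0.37 SE, adjusted p = 1.17e-07), and Dnmt3a at 145 to 206 CPM against 9.57 to 14.6 CPM. Dnmt1, the maintenance enzyme, fell by 1.57-fold, but not past the test with total counts as the scale (adjusted p = 0.122). Its cofactor gene Uhrf1 fell by 2.69-fold. Tet2 fell from between 186 and 412 CPM to between 11.7 and 37.7 CPM and Tet1 from between 268 and 587 CPM to between 148 and 236 CPM. Tet3 rose instead, with 21.7, 17.5 and 22.7 CPM in AFX and 1.59, 2.94, 5.38 and 6.72 CPM in ES cells. Dnmt3l, the catalytically inactive partner, was spread over ES passages at 0.76, 5.83, 2.00 and 21.2 CPM and did not exceed 0.169 CPM in AFX. Dppa3, which encodes STELLA and shields the oocyte genome from methylation, had 1 count in all AFX libraries together.

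Germline genes that promoter methylation is known to silence in somatic cells were nearly absent in AFX EpiSCs. Of 17 listed, 12 passed the filter on low counts, and 11 of these were lower and none higher, but a gene expressed in ES cells alone could pass only through them. Summed over the list, AFX libraries held 1.21 to 1.80 CPM and ES libraries 178 to 279 CPM. Of the ES sums, 69.4 to 101 CPM came from Rpl10l, a ribosomal protein gene whose counts are uncertain because it has close relatives in the genome. Dazl, an RNA-binding protein of germ cells, was at 0, 0.0678 and 0 CPM in AFX and 23.01, 38.7, 59.4 and 94.1 CPM in ES libraries, at least 521-fold lower. Hormad1, a meiotic chromosome protein, and Mael, a piRNA factor, had no count in any AFX library and stood at 22.6, 9.30, 13.7 and 15.99 CPM and 2.21, 1.90, 1.69 and 1.45 CPM in ES cells. Sycp3, of the synaptonemal complex, was at 0.107, 0.169 and 0.101 CPM against 28.2, 8.49, 9.70 and 5.44 CPM, with ES passage 12 the highest. Brdt, a testis bromodomain gene, was the member not called (0.571, 0.441 and 0.742 CPM against 0.138, 0.316, 0.182 and 0.808 CPM). The 12 largest falls held other germ cell genes. Sohlh2, an oogenesis factor, and the oocyte gene Nlrp4f had no count in AFX libraries and were at least 239-fold and 205-fold lower.

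Promoters of this list often held an E-box, which the choice of the list did not use. The motif CACGTG, which reads the same on both strands, was searched from 250 bases before to 50 after each start site in RefSeq (GRCm38.p6). It was present for 10 of the 16 germline genes with a promoter in the table, 62.5%, against 8.09% of all 27025 genes there and 11.3% of the 11139 tested genes with a promoter. Of the 10, Ddx4, Sycp3, Mael, Stk31, Hormad1 and Mov10l1 were called lower. Brdt was not called, and Sycp1, Slc25a31 and Tdrd1 did not pass the filter on low counts. A match is a description of the letters, not of binding. The promoters of Sycp3 (chr10:88459337-88459636, plus strand), Hormad1 (chr3:95559427-95559726, plus strand) and Mael (chr1:166238695-166238994, minus strand) are shown because their genes were at or near 0 in AFX EpiSCs and differ in where the motif lies, with each CACGTG in capitals.
Sycp3: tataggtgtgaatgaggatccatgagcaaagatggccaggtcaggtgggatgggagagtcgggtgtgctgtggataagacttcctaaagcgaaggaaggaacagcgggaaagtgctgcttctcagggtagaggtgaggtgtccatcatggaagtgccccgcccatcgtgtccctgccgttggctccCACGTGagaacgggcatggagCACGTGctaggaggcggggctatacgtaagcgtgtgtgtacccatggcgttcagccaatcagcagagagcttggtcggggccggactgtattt
Hormad1: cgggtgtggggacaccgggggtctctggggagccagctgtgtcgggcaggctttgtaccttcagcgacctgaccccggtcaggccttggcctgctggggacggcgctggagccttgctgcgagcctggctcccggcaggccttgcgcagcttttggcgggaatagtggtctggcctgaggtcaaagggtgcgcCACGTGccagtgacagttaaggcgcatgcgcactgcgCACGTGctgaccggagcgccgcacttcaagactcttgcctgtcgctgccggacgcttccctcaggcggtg
Mael: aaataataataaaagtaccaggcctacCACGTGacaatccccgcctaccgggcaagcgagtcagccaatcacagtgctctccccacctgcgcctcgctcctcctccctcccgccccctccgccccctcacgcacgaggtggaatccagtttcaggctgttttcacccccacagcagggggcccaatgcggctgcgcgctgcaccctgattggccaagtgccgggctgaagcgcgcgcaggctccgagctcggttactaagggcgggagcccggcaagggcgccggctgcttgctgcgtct
In Sycp3 the motif begins at 64 and at 43 bases before the start site, and in Hormad1 at 57 and 20 bases before it. In Mael it occurs once, 223 bases before the start site. An ESRRB-type motif, TCAAGGTCA on either strand, was found in 0.466% of all genes. Of 20 naive genes 11 had a promoter in the table, and none of these held it. At that share no match is likely in so few genes, so its absence does not set them apart.

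Imprinted genes were higher more often than lower, 14 and 4 of 26, against background shares of 28.2% and 26.1%. Kcnq1ot1 (chr7:143203458-143296549), the non-coding RNA of the paternal Kcnq1 domain, stood at 87.6, 118, 115 and 150.1 CPM in ES cells and at 0.321, 0.0678 and 0.135 CPM in AFX EpiSCs, a log2 fold change of -9.37 ± 0.69 (SE, adjusted p = 5.48e-09). It lies antisense within Kcnq1, and the strand setting of the counting is not given in the sources used here. In the same domain Cdkn1c, a cell cycle inhibitor, and Phlda2 rose, by 2.58 and 1.44 on the log2 scale, the latter not without AFX passage 8 (adjusted p = 0.055). Kcnq1ot1 was also low in AF EpiSCs, at 0.0964, 0.131 and 0.283 CPM. Grb10, an adaptor of insulin signalling, was at 706, 712 and 991 CPM in AFX and 88.7, 51.7, 49.8 and 31.1 CPM in ES libraries, 1 of the 6 largest rises in CPM. Snrpn rose by 3.12 ± 0.17 (SE). H19 and its neighbour Igf2 were highest at AFX passage 12, with 8.82, 14.3 and 122 CPM and 13.4, 9.59 and 57.8 CPM, and both were still called higher without it (log2 fold changes 6.65 and 4.92). Meg3 and Rian, non-coding RNAs of an imprinted domain on chromosome 12, were not called (110.1, 57.2 and 141 CPM against 66.5, 69.7, 89.9 and 84.6 CPM, and 511 to 577 CPM against 416 to 683 CPM). Rian was called higher without ES passage 12 (adjusted p = 0.024).

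Glycolysis genes supplied 3 of the 6 largest rises in CPM, Pkm, Aldoa and Ldha. Of 19 genes of glucose uptake, glycolysis and lactate handling 13 were higher and 3 lower, with a median of 1.07. Ldha, which makes lactate, was at 1187, 1296 and 1305 CPM in AFX and 142, 124, 94.8 and 174 CPM in ES libraries (3.24 ± 0.18 SE, adjusted p = 1.74e-10). Ldhb, the isoform that favours pyruvate, went the other way, 39.5, 53.3 and 42.4 CPM against 686, 372, 503.8 and 443 CPM. The lactate exporter gene Slc16a3 rose by 34.6-fold and the phosphofructokinase gene Pfkl by 9.19-fold. Slc2a1, the glucose transporter GLUT1, rose from between 131 and 207 CPM to between 638 and 1041 CPM, whereas Slc2a3, which encodes GLUT3, was not called (904, 1097 and 2112 CPM against 1928, 1547, 1783 and 1592 CPM). Hk1, a hexokinase gene, fell by 6.51-fold, and Hk2 was not called (367, 313 and 342 CPM against 263, 419, 386 and 521 CPM). Eno1 and its near copy Eno1b share sequence, and Gapdh, Ldha, Pkm and Aldoa have pseudogene copies, so how reads were divided among these copies is uncertain.

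**Figure D5:**
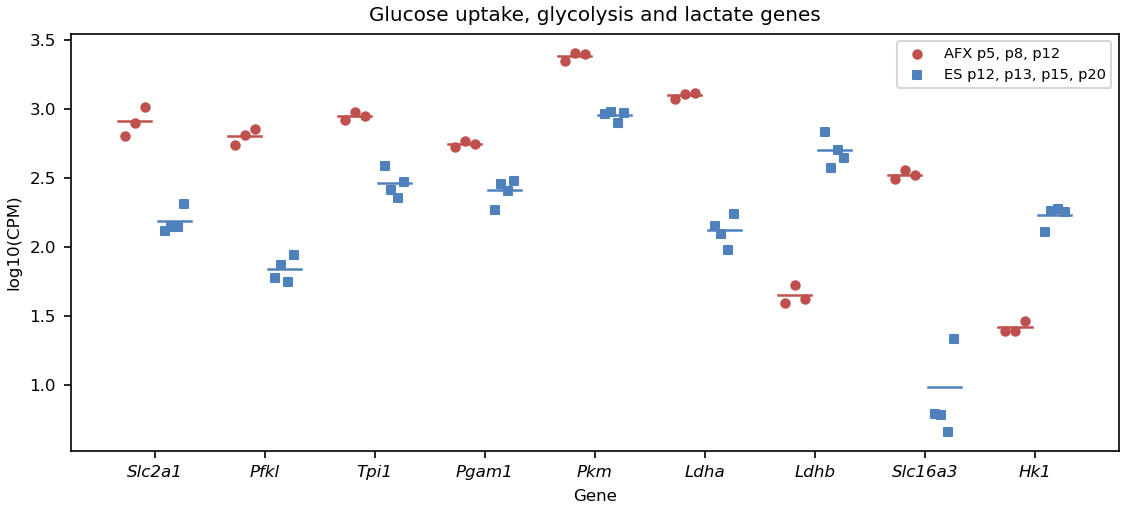
Level of 9 genes of glucose uptake, glycolysis and lactate handling, as log10 CPM, in the AFX libraries (red circles) and the ES libraries (blue squares). Each point is 1 library and each bar the group mean. Ldhb and Hk1 sit lower in AFX EpiSCs and the other 7 genes higher, with no overlap between groups.

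Of 19 genes of cholesterol and fatty acid synthesis 11 were higher and 1 lower, with a median of 0.72. Hmgcs1, the entry enzyme of the cholesterol pathway, was at 897, 1041 and 754 CPM against 275, 381, 309 and 313 CPM. In a test against a 2-fold change 2 were higher. Elovl6, a fatty acid elongase gene, was the member that was lower (log2 fold change -0.72 ± 0.20 SE), and it was not called with total counts as the scale.

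Many genes of adhesion and the cytoskeleton were higher. Of 16 adhesion and EMT genes 9 were higher and 1 lower, and they held both epithelial and mesenchymal markers. Epcam rose from between 15.04 and 24.5 CPM to between 204 and 271 CPM and Esrp1, an epithelial splicing regulator, from between 0.406 and 1.06 CPM to between 76.6 and 89.4 CPM. Cdh2, which encodes N-cadherin, rose as well, with 30.5, 12.8 and 36.1 CPM in AFX and 0.76, 1.81, 2.32 and 1.45 CPM in ES cells, while Cdh1, the gene of E-cadherin, was not called (424, 611 and 402 CPM against 454, 679.7, 707 and 805 CPM). Fn1, fibronectin, was the member that fell, by 8.77-fold. All 8 tested genes of the contractile actin cytoskeleton were higher, with a median of 6.80, or 6.15 with genes at the floor put at their bound. Tagln was at 25.99, 151 and 91.6 CPM in AFX and 0.622, 0.135, 0.319 and 0.128 CPM in ES cells, and Cnn1 at 24.2, 68.6 and 33.8 CPM against 0.207, 0.0452, 0.0911 and 0.17 CPM. AFX passage 5 was the lowest AFX library for both.

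MHC class I genes, which present peptides on the cell surface, were also higher, 9 of 10 with 1 lower, and 7 without AFX passage 12. H2-K1 was at 56.8, 65.7 and 66.9 CPM in AFX and 6.29, 2.21, 2.96 and 3.27 CPM in ES libraries (4.13 ± 0.26 SE, adjusted p = 9.94e-10). The peptide transporter genes Tap1 and Tap2 rose by 3.56 ± 0.34 and 4.65 ± 0.49 (SE). B2m, the light chain, was at 32.3, 36.3 and 36.5 CPM against 25.1, 17.03, 20.5 and 13.4 CPM (log2 fold change 0.89 ± 0.35 SE, adjusted p = 0.0412). Tapbp, the peptide-loading chaperone tapasin, was the member that was lower (15.03, 25.96 and 18.3 CPM against 30.1, 32.5, 33.1 and 27.1 CPM). The calls of B2m and Tapbp were lost without AFX passage 12 (adjusted p = 0.0977 and 0.123) and without most other single libraries. Class I genes are close relatives, so reads of H2-K1 and H2-D1 could have been shared. H2-M6-ps, a pseudogene of the same region, had no count in AFX libraries and 16.5 to 24.8 CPM in ES cells.

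Cell cycle genes of G1 showed no common direction, 5 higher and 5 lower of 18. Ccnd2, cyclin D2, was at 77.6, 60.7 and 107 CPM in AFX and 0.415, 0.632, 0.775 and 0.425 CPM in ES cells, a change of 7.15 ± 0.35 (SE, adjusted p = 5.76e-11). Ccnd3 fell by 2.60-fold, and Ccnd1 was not called (150.2, 144 and 102 CPM against 79.6, 163, 198 and 226 CPM). Myc rose by 15.95-fold. Cdkn2a, a cell cycle inhibitor locus, fell from between 13.1 and 22.9 CPM to between 0.271 and 1.86 CPM. Of 10 genes of Polycomb repressive complex 2, which methylates H3 lysine 27, 5 were lower and 1 higher. Mtf2, an accessory subunit, was at 137, 118 and 129.5 CPM against 1076, 499.6, 497 and 432 CPM, and the catalytic subunit gene Ezh2 was not called (85.98, 88.8 and 80.99 CPM against 47.9, 81.5, 76.5 and 96.4 CPM).

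The retinoic acid list had 8 higher and 4 lower of 16, and 5 higher without AFX passage 12. Rarg, a receptor gene, rose by 1.40 ± 0.19 (SE), and the binding protein gene Crabp2 by 3.54 ± 0.69 (SE). Of the genes for enzymes on the way to retinoic acid, Rdh10, a retinol dehydrogenase gene, rose (1.51 ± 0.20 SE), while Aldh1a2 fell from between 1.79 and 5.32 CPM to between 0.0357 and 0.203 CPM and Aldh1a3 from between 3.36 and 10.8 CPM to between 0.337 and 0.857 CPM. Stra8, a germ cell gene that retinoic acid induces, had at most 1 count per AFX library and was at least 43.8-fold lower.

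The 12 called genes with the largest rises, among those at 10 CPM or more with no overlap, were chosen on fitted changes, which have no exact rank where a group is at the count floor. They include Jakmip2, Pkdcc and Gbp2b, a guanylate-binding protein gene at 10.3, 30.8 and 13.9 CPM in AFX libraries. Jakmip2 had at most 1 count per ES library and 14.9, 11.3 and 8.70 CPM in AFX libraries, at least 76.5-fold higher. Pkdcc, a secreted tyrosine kinase gene, was at 60.9, 57.4 and 84.5 CPM and at least 446-fold higher. Calcr, the calcitonin receptor gene, was at 57.7, 68.3 and 49.04 CPM in AFX and 0.346, 0.0452, 0.0456 and 0.085 CPM in ES cells. The others were Tubb4a, Chst1, St6gal2, Car14 and Stc1, with AFX means between 30.2 and 64.3 CPM, and Cyp26a1, Cer1 and H19, described above. The 12 largest falls, chosen in the same way, include Accsl, which had no count in AFX and 58.3 to 88.7 CPM in ES cells. Crxos, a homeobox gene, was at least 1312-fold lower, and Rpl10l and Rpl39l, ribosomal protein genes known from testis, at least 884-fold and 148-fold lower. Both have close relatives elsewhere in the genome, so their counts are uncertain.

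Among called genes without overlap, the 6 largest falls in CPM were those of mt-Co1, mt-Co3, mt-Nd1, Tfcp2l1 and the pseudogenes Gm12346 and Gm28437. Of 26 mitochondrial genes tested 12 were lower and none higher. mt-Co1, of cytochrome oxidase, was at 5464, 6919 and 6112 CPM in AFX and 26858, 14618, 14873 and 12972 CPM in ES libraries (-1.49 ± 0.24 SE). ES passage 12, the library with the most mitochondrial ribosomal RNA, was the highest. mt-Co3 stood at 811, 1024 and 939 CPM against 5976, 1669, 1786 and 1453 CPM, with the same library apart. Nuclear copies of mitochondrial genes exist, and how reads were divided among them is uncertain. Among nuclear chromosomes, chromosome 14 had the highest median log2 fold change, 0.29, with 259 genes higher and 138 lower, and 61.6% of its 645 tested genes were called against 54.4% overall. Chromosome 3 followed at 0.21. Without AFX passage 12 these medians were 0.23 and 0.19.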

How the data were processed

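RNA was sequenced from 16 libraries of mouse pluripotent cells, and 7 of them are the subject. The authors deposited whole-number counts per gene, and per the submitters' processing notes Trim Galore, TopHat2 2.1.0, featureCounts 1.5.0 and the mm10 genome (GRCm38) were used. The strand setting and the annotation are not given in the sources used here. A further 6 columns matched no sample analysed here and were not used. Counts were scaled with TMM and filtered with filterByExpr, and edgeR 4.0.16 (R 4.3.3) fitted a robust quasi-likelihood model to all 16 libraries. P-values were adjusted by the Benjamini-Hochberg method over all 18555 genes tested, and X and Y genes were set aside afterwards. A call needed an adjusted p under 0.05. In simulated counts with 18141 genes, 100 were changed by log2 1 and 100 by log2 2. The same test recovered 46% and 78% of these, and 6.06% of its calls were false. Far fewer genes were changed there than were called in the data, so these shares need not hold for the real comparison. Genes named are the members of the lists, the 12 largest changes each way (at least 10 CPM in the higher group, no overlap, named loci), the 6 largest CPM differences each way, and genes high in 1 passage. The members and lists were chosen with earlier results of these data known. Positions are from GENCODE (GRCm38). Alternatives were other scalings, filters, DESeq2 1.42.0, a test against a 2-fold change, the 7 libraries alone, and leaving out each library. Total counts, 23146499 to 33290250 per library, limit the precision of genes with few counts.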

Additional observations from a re-analysis of the deposited data

Results flagged for a closer look

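Within the 4 ES libraries, 183 genes named in the text and 3 library measures were screened for a library whose gap to its nearest neighbour took most of the range of the group (Dixon's ratio). Chance flags about 1 in 20 groups of normally distributed values, a rate that does not hold for genes with few counts. In all, 29 genes and 1 library measure were flagged.

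The mitochondrial ribosomal RNA share of ES passage 12 was 40.1%. The same library was high for the mitochondrial genes mt-Co1 (26858 CPM) and mt-Co3 (5976 CPM) and for the nuclear copy Gm28437 (5949 CPM). It was also high for the Polycomb gene Mtf2 (1076 CPM), Rian (683.1 CPM), the naive gene Pecam1 (128.8 CPM), Igf2 (1.382 CPM) and Calcr (0.3455 CPM). It was low for Dnmt1 (301.1 CPM), Tet1 (268.2 CPM), Trim71 (190.5 CPM), Hk1 (128.7 CPM), Rpl10l (69.38 CPM), Cdk6 (37.52 CPM) and Tcf7l1 (6.219 CPM). Fgf8 was flagged as low there at 0 CPM, against 1 count in each other ES library. The part of the ribosomal RNA share in these values was not tested.

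ES passage 20 was high for Trh (235.2 CPM), the glucose transporter gene Slc2a1 (207 CPM), Gdf3 (110.1 CPM), the imprinted gene Plagl1 (98.17 CPM), the lactate exporter gene Slc16a3 (21.64 CPM), Spry4 (6.037 CPM) and Lin28b (5.867 CPM), and for single counts of Jakmip2 and Lhx1 (0.04252 CPM each). ES passage 15 was low for Pkm (795.9 CPM) and high for Gbp2b (0.09112 CPM, which is 2 counts). ES passage 13 was high for Cyp26a1 and Hes5, at 0.04516 CPM each, which is 1 count.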

How the results depend on the processing

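The total of 9705 calls stayed between 7907 and 10086 under other scalings and filters, with DESeq2 and in the fit to the 7 libraries alone, with 4053 to 5809 higher and 3167 to 4921 lower. A test against a 2-fold change called 4804 genes, 2743 higher and 2061 lower. Leaving out 1 library gave 8571 to 9665 calls, 4362 to 5142 higher and 4039 to 4523 lower, and no shared call changed sign in any setting. Without AFX passage 12 the log2 fold changes of Cxcr4 (-1.9735), Dkk1 (-2.1359), Gata4 (-2.3717), Pga5 (-5.5348) and Sox17 (-1.2033) were negative, against highest values of 1.495, 2.6404, 1.4721, 2.7343 and 5.182 when another library was left out. T, not called, went from -1.704 to 0.1838 over the libraries left out and was 0.0282 with total counts, and Trim71, not called, went from -0.1656 to 0.1115. Of 183 named genes, 167 kept their direction and side of the threshold without AFX passage 12, 175 with total counts, 171 in the fit to the 7 libraries alone, where 5 were called in addition, and 163 in the test against a 2-fold change. The causes were not tested. No paired analysis was possible because replicate numbers name passages of different lines in accession order and pair no samples. The AFX and ES groups are each 1 line, so a difference between lines cannot be told apart from a difference between media. Genes at under 1 CPM rest on a few counts.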

Other observations

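Genes listed as markers of other cells went in both directions. Of 5 trophoblast genes tested 2 were higher in AFX EpiSCs, Gata3 and Ascl2, and 2 lower. Of 3 blood and endothelium genes 1 was higher, Runx1, and 2 lower. Of 5 cardiac and skeletal muscle genes 1 was higher, Myh6, and 2 lower. Those described next were higher in ES cells. Tfap2c and Tead4, transcription factors of trophoblast that naive cells also express, stood at 1.64, 0.949 and 2.46 CPM and 2.14, 2.44 and 1.96 CPM in AFX libraries against 44.2, 47.6, 61.9 and 55.8 CPM and 30.1, 40.6, 32.5 and 37.5 CPM in ES libraries. Their log2 fold changes were -4.95 ± 0.45 and -4.01 ± 0.39 (SE). Ttn, which encodes the muscle protein titin, was at 2.25, 2.54 and 1.28 CPM in AFX and 116, 322, 255 and 226 CPM in ES libraries and fell by 114-fold, with no overlap between groups. Pecam1, an adhesion molecule of endothelium that is also in the naive list, was at 0.714, 0.508 and 0.843 CPM against 129, 110.1, 112 and 109.7 CPM. Of the 13 genes of the 2-cell-stage list 11 were in the table and none passed the filter on low counts. With no filter 4 were called lower. Their summed level was 0.0357 to 0.101 CPM in AFX and 0.680 to 1.99 CPM in ES cells.

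Imprinted genes outside the Kcnq1 and H19 domains also differed. Plagl1, a zinc finger factor, was at 1.86, 1.32 and 3.04 CPM in AFX and 5.53, 14.6, 15.4 and 98.2 CPM in ES libraries, with ES passage 20 the highest. Zdbf2 rose by 1.69 ± 0.23 and Ndn by 2.63 ± 0.32 on the log2 scale (SE). Mest was at 83.3, 69.2 and 156 CPM against 6.63, 16.03, 11.3 and 56.04 CPM, and Peg3 at 114, 88.97 and 306 CPM against 37.7, 62.1, 71.8 and 90.5 CPM, and AFX passage 12 was the highest library for both. Without it Peg3 was not called (adjusted p = 0.199). Among the cell cycle genes Cdk6, a partner of the D cyclins, rose by 1.59 ± 0.36 (SE), and Cdkn1a, the p53 target that encodes p21, was lower (26.2, 39.8 and 37.98 CPM against 49.96, 69.1, 86.9 and 84.3 CPM).

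Of the nuclear chromosomes other than X and Y, 16 and 11 had the lowest median log2 fold changes, -0.14 and -0.10, and both medians were positive with total counts as the scale.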
